A study of Mus musculus with 9 samples.

Results

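AK036329 and Mapk4 are 2 of the 27497 genes in the deposited expression table of the mouse olfactory bulb. AK036329 was chosen because it was the longer transcript that was lower after 30 min of odor, and Mapk4 because the AK036329 model lies across its 5′ end on the opposite strand. They were found by identifier, as ENSMUSG00000053861 and ENSMUSG00000024558. RNA came from the bulbs of 9 C57/BL6 mice, all adult (6 to 8 weeks or more), with 3 mice in each of 3 groups. Clean air mice breathed air from an activated carbon filter. The 30 min mice had 30 min of a cocktail of odorants, and the 120 min mice had the same 30 min of odor and then 90 min of clean air. All 9 libraries were polyadenylated RNA of bulb tissue, so fewer cells of a type and less RNA per cell cannot be told apart.

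Mapk4 encodes ERK4, an atypical MAP kinase. Conventional MAP kinases are switched on by MAP kinase kinases that phosphorylate both a threonine and a tyrosine in the activation loop, whereas ERK4 and its close relative ERK3 carry a single phosphorylation site there, which p21-activated kinases can modify. The best known partner of ERK4 is the protein kinase MK5, encoded by Mapkapk5. The deposited table describes AK036329 as a full-length RIKEN cDNA from neonatal cerebellum with a hypothetical protein as its product, and names no function.

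In the GENCODE M21 annotation, the AK036329 identifier carries the name Gm9925 and stands for 1 exon of 483 nt, of which 480 nt are annotated as coding. It is listed as protein coding, without an untranslated region. Its 5′ end lies 173 nt upstream of the start of the principal Mapk4 transcript on chromosome 18, and the genes are read away from each other from there. Mapk4 spans 136.9 kb with 4 annotated transcripts and 5400 nt of exons in all. The first exon of 1 of these, an alternative transcript, begins further upstream and covers 258 nt of AK036329, which is 53.4% of the AK036329 model and 4.78% of the Mapk4 exons. The other 225 nt of AK036329 lie outside Mapk4, and the principal transcript does not overlap it. These distances come from a later genome build than the mm9 build of the deposited values, so no positions are given. The sources used here do not say whether the strand of the reads was used, so reads in the 258 nt cannot be assigned to either gene.

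**Figure D1:**
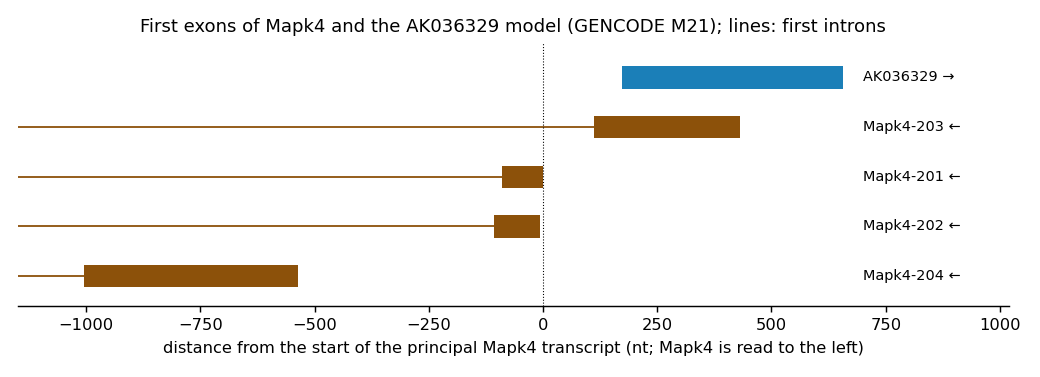
First exons (boxes) of the 4 annotated Mapk4 transcripts and of AK036329, by distance in nt from the start of the principal Mapk4 transcript, with first introns as lines and arrows for the direction of reading. AK036329 shares 258 nt with the first exon of the alternative transcript (the uppermost Mapk4 row) and none with the other 3 transcripts.

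The deposited unit was RPKM, that is, reads per kilobase of gene length and per megaread. The spacing of the RPKM values of short RNAs gave depths of 7.15 to 29.9 megareads per library. With these depths, the 9 values of AK036329 came out within 0.0652 of whole reads when the 483 nt model was counted over 449 nt, a length shortened by 34 nt as the short RNAs required. With the full 483 nt, they lay up to 0.430 from whole reads. Of 2801 lengths tried, from 200 to 3000 nt, none came closer to whole reads than 449 nt.

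On that scale AK036329 rested on 70, 118 and 167 reads in clean air mice 1, 2 and 3. It rested on 21, 72 and 45 reads in the 30 min mice and on 45, 82 and 26 reads in the 120 min mice. A floor of 3 counts per library corresponded to 0.224 to 0.934 RPKM for AK036329, well under every value measured. Mapk4 rested on an estimated 1645 to 6064 reads per library if its length was that of GENCODE M21. AK036329 reads equalled 1.28% to 5.49% of that number, which bounds what they could add to the Mapk4 value if all were counted in both genes.

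AK036329 was highest in clean air, lowest at 30 min and between these at 120 min. It had 14.85, 11.84 and 12.44 RPKM in clean air mice 1, 2 and 3, a mean of 13.0 ± 1.59 RPKM (SD, n = 3 mice, as for all means here). It had 5.30, 5.56 and 5.75 RPKM in the 30 min mice, a mean of 5.54 ± 0.226. It had 10.17, 7.56 and 8.09 RPKM in the 120 min mice, a mean of 8.61 ± 1.38. Every clean air mouse was above every 120 min mouse, and every 120 min mouse was above every 30 min mouse. This complete order was held by 3 of the 12780 genes tested (0.0235%), but the step from clean air to 30 min is what AK036329 was chosen for.

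Counting error was set beside these values as a description, since they chose the gene. The 95% exact Poisson intervals, which cover counting error only, ran from 9.81 RPKM at the lowest to 18.8 RPKM at the highest over the clean air mice. Over the 30 min mice they ran from 3.28 to 8.11 RPKM, and met none of the clean air intervals. The 120 min intervals ran from 5.29 to 13.6 RPKM and overlapped those of both other groups.

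**Figure D2:**
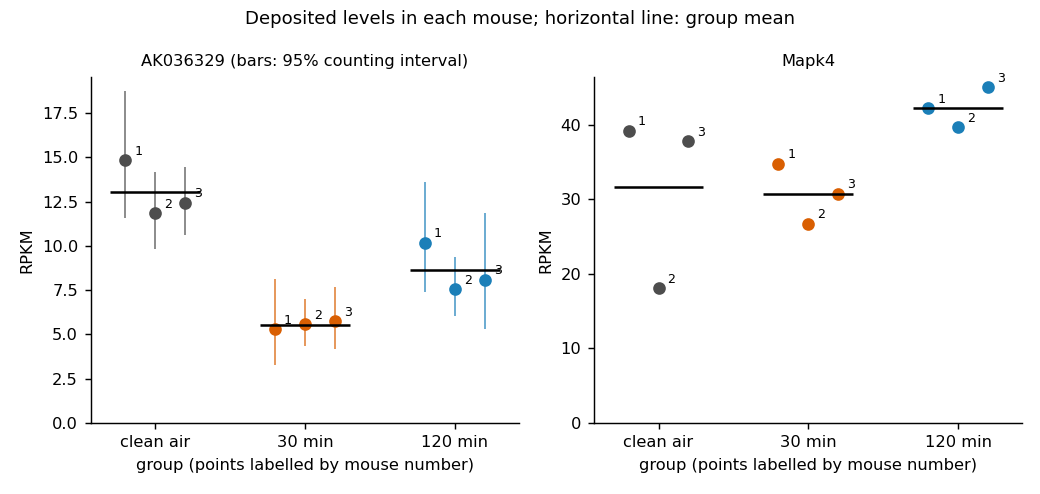
RPKM of AK036329 and Mapk4 in each mouse by group, with the group mean as a line and, for AK036329, the 95% Poisson counting interval of each library. AK036329 lies at 11.84 to 14.85 RPKM in clean air mice and 5.30 to 5.75 in 30 min mice, while Mapk4 has a low clean air mouse at 18.04 RPKM and its highest group at 120 min.

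In the fit of log2(RPKM + 0.5) by limma, AK036329 differed from clean air by -1.16 ± 0.17 at 30 min (log2 difference ± SE), a 2.23-fold lower level. This difference chose the gene and is given without a test. Its groups did not overlap. Of all tested genes, 4.08% were lower at 30 min than in clean air without overlap. Of the 12780 genes tested, those with a mean of at least 1 RPKM, 0.141% were called at 30 min at a Benjamini-Hochberg adjusted p under 0.05 in either direction. Of all tested genes, 0.133% were called higher and 0.00782% lower, which is AK036329 alone. That call rests on the values that chose AK036329, so it is no further evidence. The number called lower was 2 with a pseudocount of 1 and 2 without the filter on low values, where AK036329 was not among them. It was 3 with the mouse number as a replicate block. The AK036329 call ended on leaving out 120 min mouse 3 or any single mouse of the clean air and 30 min groups, without the filter on low values, and with the clean air and 30 min groups fitted alone. Just outside the threshold among lower genes was Gm23880, a short RNA with 4.76, 11.26 and 6.69 RPKM in clean air mice and 0, 1.73 and 0 in 30 min mice. At 54 nt its values stand for few reads, and in clean air mouse 1 it was under the floor of 3 counts. Next came ENSMUSG00000076004, which has no symbol, with 74.69 to 140.37 RPKM in clean air mice and 23.74 to 52.21 in 30 min mice. The spread of AK036329 within groups was small: its residual SD of 0.16 on the log2 scale was at the 11.4th percentile of all tested genes, whose median was 0.28. A small spread favours a call at 30 min, so it is tied to the choice of the gene and is a description. The 30 min values of 5.30 to 5.75 RPKM lay closer together than their counting intervals of 3.28 to 8.11 RPKM. The spread therefore does not show a steady level. By size alone, 40 tested genes had a lower log2 difference at 30 min than AK036329.

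At 120 min AK036329 stood at -0.58 ± 0.17 against clean air, a 1.49-fold lower level, and at 0.58 ± 0.17 above 30 min on the same scale. Both comparisons share mice with the one that chose the gene, so they are no independent evidence and carry no test here. AK036329 was not among the genes called in either, where 0.0861% and 0.0782% of tested genes were called. Against clean air, 0.0704% were called higher at 120 min and 0.0156% lower. Its groups did not overlap in either. Of all tested genes, 5.27% were lower at 120 min than in clean air without overlap, and 4.99% were higher at 120 min than at 30 min without overlap. In clean air its mean level was at the 58.8th percentile of the tested genes.

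Rows named in the same way were compared to place AK036329 among uncharacterised transcripts. The table held 584 rows whose symbol was an AK number, of which 198 were tested, AK036329 included. AK036329 was the 1 of these 198 called at 30 min, beside 0.141% of all tested genes, and it was chosen for that difference. None was called by limma at 120 min against clean air or 30 min. The median log2 difference of the class at 30 min was 0.03, beside 0.08 for all tested genes, and 2 members lay below AK036329. Of 4 tested long noncoding RNAs of brain, none was called by limma at 30 min (1 had an unadjusted p under 0.05), and the largest difference was that of Meg3, -0.57 ± 0.21. Among the 60 tested genes with 400 to 600 nt of exons, the median at 30 min was -0.09, and none was lower than AK036329, a rank that its choice sets.

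Mapk4 gave a different picture. It had 39.24, 18.04 and 37.81 RPKM in clean air mice 1, 2 and 3, with a mean of 31.7 ± 11.8. It had 34.78, 26.77 and 30.80 RPKM in the 30 min mice, with a mean of 30.8 ± 4.005, inside the range of the clean air mice. It had 42.23, 39.73 and 45.08 RPKM in the 120 min mice, with a mean of 42.3 ± 2.68. Every 120 min mouse was above all 6 other mice, an order held by 267 of 12780 tested genes (2.09%), so it is not rare. For the separate comparisons, 7.86% of tested genes were higher at 120 min than in clean air without overlap, and 4.99% than at 30 min.

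By limma, the log2 difference of Mapk4 at 30 min was 0.03 ± 0.26, with a 95% interval of -0.55 to 0.61 and an adjusted p of 0.982. At 120 min Mapk4 was at 0.49 ± 0.26 against clean air (95% interval -0.09 to 1.07, unadjusted p = 0.0890, limma adjusted p = 0.596). Against 30 min it was at 0.46 ± 0.26 (95% interval -0.12 to 1.04, unadjusted p = 0.108, limma adjusted p = 0.999). None of the 3 comparisons passed, and the intervals leave room for a rise of over 2-fold at 120 min. Without clean air mouse 2 the difference at 120 min was 0.13 ± 0.16 (limma adjusted p = 0.828), and that at 30 min turned to -0.33 ± 0.16 (limma adjusted p = 0.629). At 30 min the sign also turned without 30 min mouse 1 (-0.06) and when each library was centred on its median (-0.05), so no direction can be given there.

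The level of AK036329 per length was below that of Mapk4 in every library. AK036329 had 37.8%, 65.6% and 32.9% of the RPKM of Mapk4 in clean air mice 1, 2 and 3. It had 15.2%, 20.8% and 18.7% in the 30 min mice and 24.1%, 19.0% and 17.9% in the 120 min mice. The clean air mice lay above all exposed mice, and the exposed groups overlapped. The high value of clean air mouse 2 came with its low Mapk4, not with a high AK036329. The mean log2 ratio was -1.20 ± 0.53 in clean air, -2.47 ± 0.23 at 30 min and -2.31 ± 0.22 at 120 min (SD). Since AK036329 was chosen on part of these values, the ratio is a description.

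**Figure D3:**
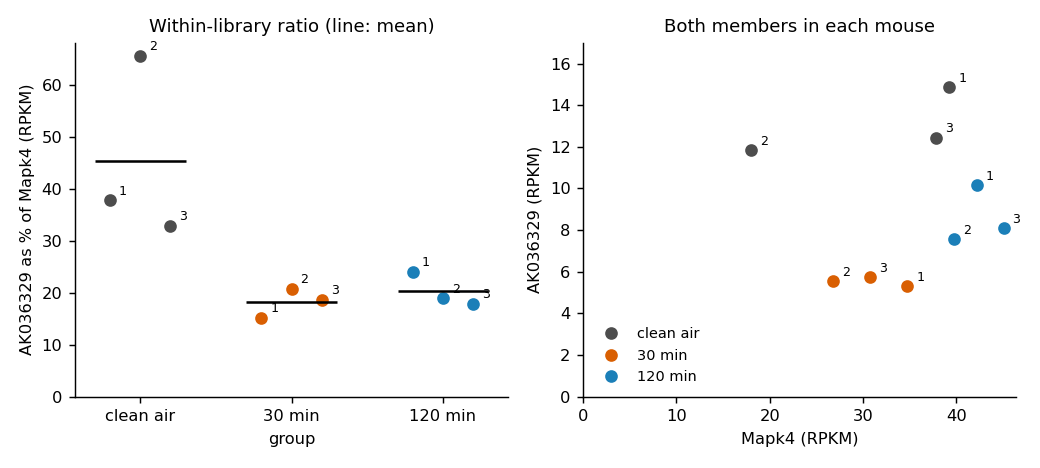
Left, AK036329 as a percentage of the RPKM of Mapk4 in each mouse, with the group mean as a line. Right, both levels in each mouse (points numbered by mouse). The ratio is 32.9% to 65.6% in clean air and 15.2% to 24.1% in the exposed mice.

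Over the 9 mice, Pearson's r of log2(RPKM + 0.5) between AK036329 and Mapk4 was 0.05 and Spearman's rho was 0.23. The 9 mice include those whose AK036329 values chose the gene, so its 30 min difference enters both coefficients. Both are therefore given as a description, without a test. They cannot tell whether AK036329 and Mapk4 vary together within groups. Without clean air mouse 2 and 30 min mouse 2, the mice farthest from the median of Mapk4, r was 0.49 in the other 7. Without clean air mouse 2 alone it was 0.60. The deviations from the group means had an r of 0.39, given as a description. In the table, 1039 pairs of tested genes had exons that overlap on opposite strands by GENCODE M21. Their median r was 0.21, with a middle range from -0.15 to 0.52, across pairs that are not independent. The log2 differences of AK036329 and Mapk4 at 30 min lay 1.19 apart, beside a median distance of 0.21 over the pairs. That distance is mostly the 30 min difference for which AK036329 was chosen, so its place among the pairs is no finding.

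The genes around Mapk4 were next. Beyond its 3′ end lie Mro, Me2 and Elac1, at 47.1, 113 and 174 kb, and beyond its 5′ end lie Ska1 and Cxxc1, at 129.9 and 150.8 kb. None of the 4 tested was called in any comparison. Me2, the gene of a mitochondrial malic enzyme, had the largest of their differences at 30 min, 0.48 ± 0.19 (limma adjusted p = 0.818), from 4.45 to 5.85 RPKM in clean air mice to 6.14 to 7.77 RPKM in 30 min mice. Its groups did not overlap. Of all tested genes, 7.29% were higher at 30 min than in clean air without overlap. Cxxc1, which encodes a subunit of a histone H3 methyltransferase complex, had overlapping values of 34.51 to 50.28 RPKM (clean air) and 38.96 to 41.70 RPKM (30 min). Mro and Elac1, whose protein processes the 3′ ends of transfer RNAs, had log2 differences of -0.05 and 0.08. Ska1, a kinetochore gene, was listed at 0 in all libraries but clean air mouse 2, with 0.11 RPKM. A pseudogene on that side and a long noncoding RNA annotated within the Mapk4 span were not analysed here.

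Mapk4 was among the better expressed MAP kinase genes of the bulb. By mean RPKM in clean air, which is per length, it stood at the 81.0th percentile of all tested genes. Among the conventional and atypical MAP kinases and ERK4 partners, those above it included Mapk3 (155 ± 23.4 RPKM), Akt1 (108 ± 12.6), Pak1 (86.8 ± 22.6) and Mapk10 (41.0 ± 8.31), and those below it Mapk14 (23.5 ± 7.85) and Mapk9 (18.2 ± 1.31). The clean air ranges of Mapk10, Mapk4 and Mapk14 overlapped in turn, so their order is not resolved. Mapk6, which encodes ERK3, had 10.3 ± 1.76 RPKM, and its clean air range of 8.25 to 11.37 RPKM lay below that of Mapk4. Mapkapk5, the gene of the ERK4 partner MK5, had 17.1 ± 2.87 RPKM. Its range of 14.73 to 20.31 RPKM overlapped that of Mapk4 through clean air mouse 2 alone.

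**Figure D4:**
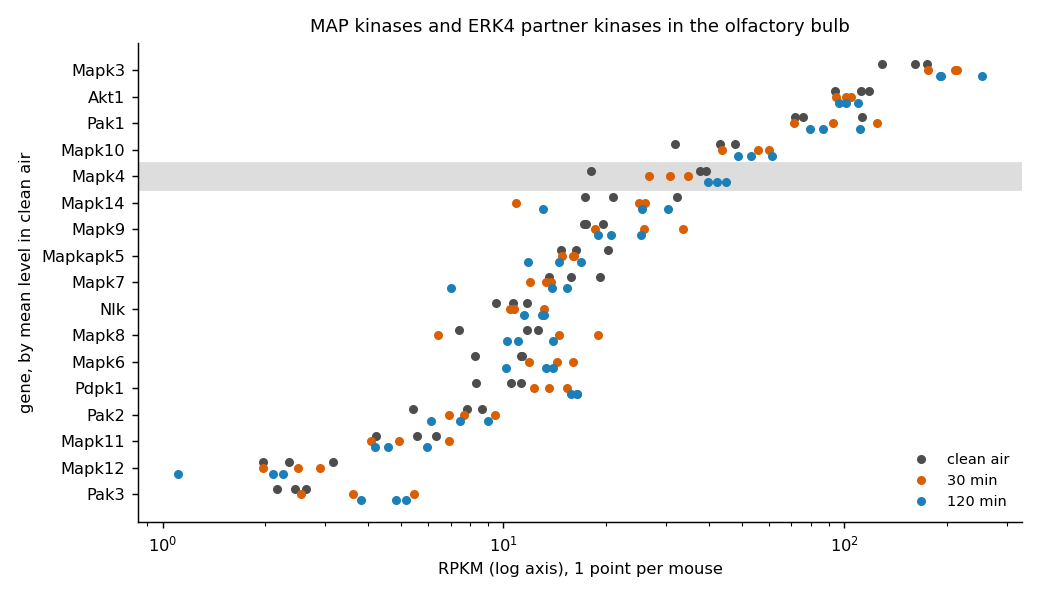
RPKM in each mouse (log axis) of tested MAP kinases and ERK4 partner kinases, ordered by mean level in clean air, with Mapk4 shaded. Mapk4 lies at 18.04 to 45.08 RPKM, between Mapk10 and Mapk14.

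None of the 9 tested genes on the list of atypical MAP kinases and ERK4 partners, Mapk4 included, was called by limma in any comparison. At an unadjusted p under 0.05 there were 2 of the 9 at 30 min (22.2%) and 2 at 120 min against clean air (22.2%). There were 0 at 120 min against 30 min. Of all tested genes, 5.92%, 9.57% and 3.36% had such a p, in the same order. The median log2 differences of the 9 were 0.14 at 30 min and 0.23 at 120 min against clean air. Those of all tested genes were 0.08 and 0.03. Pak3, a p21-activated kinase, had the largest difference of the list, with 2.16 to 2.63 RPKM in clean air mice and 3.83 to 5.17 in 120 min mice (0.81 ± 0.26, limma adjusted p = 0.364). Pdpk1, whose product activates Akt kinases, had 8.30 to 11.28 RPKM in clean air mice and 15.80 to 16.43 in 120 min mice (0.68 ± 0.17, limma adjusted p = 0.342). Neither passed, although their groups did not overlap. Of all tested genes, 7.86% were higher at 120 min than in clean air without overlap. At 120 min, Mapk6 had 0.27, the Nemo-like kinase gene Nlk 0.23, Mapkapk5 -0.24, Pak1 0.10, Pak2 0.05 and Akt1 -0.07 on the log2 scale. Mapk15, with 0.12 to 0.80 RPKM over the 9 libraries, and Dusp2, a phosphatase gene with 0.31 to 1.73 RPKM, were below the filter.

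Of 56 tested genes on all 5 MAP kinase lists, 2 were called higher at 30 min and none was called lower. That is 3.57%, beside 0.141% of all tested genes. These lists were chosen with earlier results known, so the share is a description. Both are phosphatase genes that act back on MAP kinases, Dusp1 (1.97 ± 0.18, limma adjusted p = 0.000620) and Dusp6 (1.12 ± 0.16, limma adjusted p = 0.0202). At an unadjusted p under 0.05 there were 7 of the 56 at 30 min, or 12.5%, beside 5.92% of all tested genes. The calls of these lists fell to 1 gene without clean air mouse 1 or 2, or without any 1 of the 30 min mice. None of the 56 was called at 120 min against clean air by limma (6 had an unadjusted p under 0.05, or 10.7%, beside 9.57% of all tested genes), and Dusp1 was lower at 120 min than at 30 min. No conventional MAP kinase, MAP kinase kinase, MAP3 kinase or MAP kinase-activated kinase was called in any comparison. The largest 30 min differences in those lists were those of Mapk9 (0.47), Braf (0.44) and Mknk1 (0.64), and the list medians were 0.22, 0.07 and 0.07. The phosphatases had a median of 0.46.

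The genes with a pattern most like that of AK036329 were ranked by Pearson's r over the 9 libraries among all tested genes, as a description. The highest were Tigd5 (0.95), ENSMUSG00000075578 (0.91), ENSMUSG00000073673 (0.90), Slc35d3 (0.90) and C1qtnf1 (0.88). Tigd5 belongs to a family derived from transposases. Its clean air values were 5.45 to 6.62 RPKM, its 30 min values 3.33 to 4.40 RPKM and its 120 min values 4.51 to 5.45 RPKM, the same order of group means at a lower level. None of the 5 was called at 30 min.

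The most opposed genes were Dusp6 (-0.97), Fosb (-0.95) and Ppp1r9a (-0.94), which encode a phosphatase of ERK kinases, an AP-1 subunit and the actin-binding protein neurabin. Dusp6 went from 8.29, 9.14 and 11.39 RPKM in clean air mice to 21.91, 20.97 and 21.20 in 30 min mice, with 13.20, 14.11 and 15.48 in 120 min mice. It was thus lowest, highest and between in the groups where AK036329 was highest, lowest and between. Dusp6 and Fosb were themselves called at 30 min. Part of this likeness follows from the 30 min difference that chose AK036329.

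The genes most like Mapk4 were ranked by Pearson's r in the same way, also as a description. The highest r to Mapk4 were those of mKIAA0889 (0.97), Med13l (0.97), AK012857 (0.97), Dab2ip (0.96) and Slc9a7 (0.96), of which Med13l encodes a subunit of the Mediator complex and Dab2ip a Ras GTPase-activating protein. In deviations from the group means, their r was 0.95 to 0.99, which their choice by r over the same libraries favours. Med13l had 18.30, 9.62 and 18.15 RPKM in clean air, so that clean air mouse 2 was low as for Mapk4. The most opposed genes, Pno1 (-0.97), Nova1 (-0.96) and Trip12 (-0.95), were highest in clean air mouse 2, with 11.17, 15.28 and 15.42 RPKM. Nova1 encodes a neuronal splicing regulator and Trip12 a ubiquitin ligase.

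**Figure D5:**
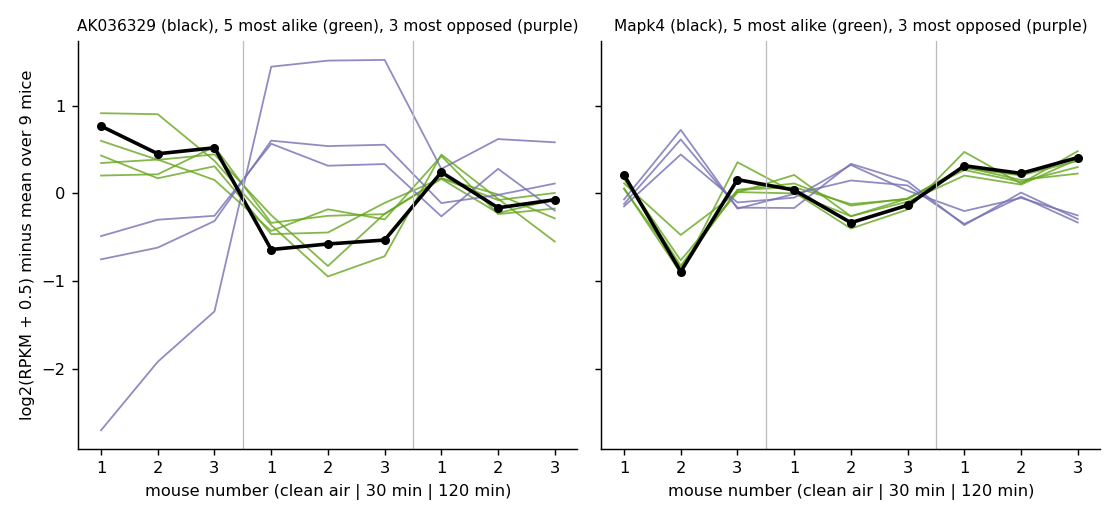
log2(RPKM + 0.5) minus the mean over 9 mice for AK036329 and Mapk4 (black), their 5 most alike genes (green) and 3 most opposed genes (purple). Lines join mice only to guide the eye, since mice in a group have no order. AK036329 and its likes have their lowest group mean at 30 min, and Mapk4 and its likes dip in clean air mouse 2.

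Mapk4 was lowest in the mouse numbered 2 in each group. The first principal component of the deviations from group means held 32.8% of their variance, and its scores were lowest in mouse 2 of each group (-0.50, -0.39 and -0.45). The deviations of Mapk4 had an r of 0.80 with that component and those of AK036329 an r of 0.53, beside a median absolute r of 0.49 over all tested genes. The mice numbered 2 had depths of 22.2, 28.8 and 24.1 megareads. Mice 1 and 3 had 10.5 and 29.9 megareads in clean air, 8.82 and 17.4 at 30 min, and 9.86 and 7.15 at 120 min. Mouse 2 was thus the deepest in both odor groups but not in clean air. The summed astrocyte markers ranked the mice as Mapk4 did in all 3 groups, the 1 list of 13 to do so. Their sums were 1595, 1055 and 1238 RPKM in the clean air mice, 1605, 1396 and 1544 in the 30 min mice, and 1424, 1305 and 1763 in the 120 min mice. All 8 astrocyte markers were tested, and none was called. Aldoc, a glycolytic enzyme gene of astrocytes, made up 55.1% to 65.9% of the sum. By single genes, 4 of the 8 were lowest in mouse 2 in clean air, 4 at 30 min and 5 at 120 min, with Gfap, Aldh1l1 and Aldoc among them each time. The glutamate transporter gene Slc1a2 had 24.01 RPKM in clean air mouse 2 and 87.86 to 152.19 RPKM elsewhere. The other glutamate transporter gene of the list, Slc1a3, was highest in mouse 2 of each group (119.72, 166.50 and 142.75 RPKM). The part of depth, of this component and of astrocytes in the Mapk4 values was not tested.

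Markers of the labelled tissue were present, without another tissue for comparison. Mitral and tufted cell genes summed to 1030 to 1441 RPKM per library and granule and other interneuron genes to 1533 to 1915 RPKM. The choroid plexus and meninges list summed higher, to 2085.6 to 3910.5 RPKM. The 6 genes of the odor response panel, Fos, Egr1, Arc, Npas4, Nr4a1 and Junb, were all called higher at 30 min. No marker list held a called gene in any comparison. Outside the marker lists, the 4 long noncoding RNAs of brain summed to 790.8 to 975.4 RPKM in clean air mice. At 30 min their sums were lower without overlap (520.6 to 788.1 RPKM). Of single tested genes, 4.08% were lower at 30 min without overlap. Meg3 and Snhg11 held most of this sum, with clean air means of 532 and 317 RPKM. By sign, 2 of the 4 had a log2 difference above 0 at 30 min, so the list did not fall as a class. The sums of the MAP kinase phosphatases and of the odor response panel were higher at 30 min without overlap. So was that of all 5 MAP kinase lists together, which include the phosphatases. Of single tested genes, 7.29% were higher at 30 min without overlap. Dusp1 alone went from a mean of 14.2 RPKM in clean air to 56.6 at 30 min. Of the 56 tested genes of the 5 lists, 37 had a log2 difference above 0 at 30 min. Their median was 0.10, beside 0.08 for all tested genes. Among the marker lists, only red blood cell markers separated clean air (38.0 to 144.8 RPKM) from 30 min (152.7 to 196.8 RPKM), in the direction opposite to AK036329. At 120 min they were 46.3 to 188.5 RPKM. They rest on Hbb-b1 and Alas2, since both alpha-globin rows were listed at 0. Hbb-b1 held nearly all of the sum, with 36.96 to 141.7 RPKM in clean air mice and 147.92 to 192.91 in 30 min mice. The part of these markers in the AK036329 difference was not tested.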

How the data were processed

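RNA of 9 olfactory bulbs was extracted with Trizol, treated with DNase and selected on oligo-dT beads, per the labels' protocols. Reads were aligned with Bowtie to mm9, per the submitters' processing notes. Annotation, counting rule and strand setting were not given in the sources used here. RPKM values, which the authors deposited with 2 decimals, were used without further scaling. Columns were matched to mice by the codes in the sample descriptions. Depth was recovered from the spacing of values of 477 RNAs under 200 nt, of which 84.6% to 93.5% per library were whole within 0.05 reads when lengths were shortened by 34 nt. Names, lengths and overlaps came from GENCODE M21, which held 22515 of 27497 identifiers.

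With limma 3.58.1 (R 4.3.3; lmFit, then eBayes with trend), log2(RPKM + 0.5) was fitted for genes averaging 1 RPKM or more, with all 9 libraries in a single fit without covariates. Tests were two-sided, with Benjamini-Hochberg adjustment over all 12780 genes. The fit and the depth recovery were tested on simulated data. The members and lists were chosen with earlier results of these data known. Beside the members, the text names the genes of the atypical MAP kinase list, each list's called genes and the one with the largest 30 min difference, the odor response panel, flanking genes, genes just outside the threshold, and the 5 most alike and 3 most opposed genes. For marker lists this is given only where they bear on a member; Alas2 was chosen after its values were seen. Some genes of the lists are not reported here. No sequences are printed.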

Additional observations from a re-analysis of the deposited data

How the results depend on the processing

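Over 17 alternatives (pseudocounts of 0.1 and 1, no filter, a filter of 3 RPKM, the 2 compared groups alone, median centring, no trend, the mouse number as a block, and each mouse left out), AK036329 stayed between -1.24 and -1.07 at 30 min, -0.70 and -0.48 at 120 min, and 0.46 and 0.67 for 120 min against 30 min. The filters, the block, the 2 groups alone, the fit without trend and leaving out a mouse of the third group cannot change a log2 difference. They change only its SE and adjusted p, so the unchanged difference there is no sign of stability. The 30 min call of AK036329 ended in 9 of the 17. These were the fit without a filter, the 2 groups alone, and leaving out 120 min mouse 3 or any single mouse of the other groups. Mapk4 was called in none of the 17. Its 30 min difference turned to -0.048 with median centring and ranged from -0.33 (without clean air mouse 2) through -0.06 (without 30 min mouse 1) to 0.22 with a mouse left out. The correlation of AK036329 with Mapk4 ranged from -0.087 (without 30 min mouse 2) through -0.07 and -0.0019 (without clean air mouse 1 or 3) to 0.60 with a mouse left out. Called genes of the MAP kinase lists at 30 min went from 2 to 1 with the 2 groups alone, 1 with median centring and 1 to 2 with a mouse left out, and to 3 with the replicate block. By limma 11 genes passed at 120 min against clean air, 2 with the 2 groups alone and 0 to 11 with a mouse left out: 0 without clean air mouse 2 or 120 min mouse 3, 3 without 120 min mouse 1 or 2, and 6 without clean air mouse 1. With all mice, 1223 of 12780 genes had an unadjusted p under 0.05. The causes were not tested.

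Same-numbered mice had correlations of deviations from group means of 0.081 to 0.44, over 0.1 in 7 of 9 pairs, and each mouse correlated best with its own number in all 18 comparisons. This is a hint from the data, and the labels do not pair the mice: the numbers are those of the titles, and the submitters' own library codes differ between clean air and the odor groups for mice 2 and 3. Under the replicate block, 22 genes in place of 18 passed at 30 min (3 lower in place of 1). The block cannot change the log2 differences of AK036329 at 30 min (-1.16) and of Mapk4 at 120 min (0.49). For Mapk4 at 120 min the limma adjusted p was 0.302 under the block, with no call of Mapk4 gained.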
